A study of Mus musculus with 4 samples.

Results

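The transcription factor genes Rax, Six3, Lhx2, Pax6, Hesx1 and Fezf1 of the eye field and anterior forebrain were described, 6 of 29178 gene features in the lists of m6A sites. They were chosen by name with earlier results of these data known, among them a lower coverage and a loss of listed sites in the knockout, so their wild-type and knockout values are given as descriptions with no test. A site belonged to a gene when its position and strand lay inside the deposited start, end and strand of that gene. Over the 4 lists, 546 of 881997 distinct sites did so. Mouse retinal organoids, in which pluripotent stem cells form retinal tissue in culture, were taken at day 4 of differentiation. The wild-type (WT) group was 2 libraries of the Rx:GFP line, whose green reporter marks expression of Rax (also called Rx), and the other was 2 libraries of a Mettl3 knockout (KO) made in that line. METTL3 is the catalytic subunit of the methyltransferase that places most m6A in mRNA. The protocol describes the KO line as carrying a doxycycline-inducible HA-METTL3, and no library has a recorded treatment. Both groups were grown in GMEM with KSR, NEAA, β-ME, sodium pyruvate and AGN, and all 4 libraries carry the same batch label. The number of clones behind the KO line and whether libraries came from separate cultures are not given in the sources used here, so p-values measure only the spread between these libraries.

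The 6 proteins act at the anterior end of the neural plate. Rax, Six3, Lhx2 and Pax6 belong to the eye field network, the group of transcription factors that sets aside cells for the future retina and then supports growth of the optic vesicle. Rax and Six3 are required for eye formation, Lhx2 for the passage from optic vesicle to optic cup, and Pax6 for retinal progenitors as well as lens and forebrain. Hesx1 is a repressor of the homeodomain class needed for forebrain and pituitary, and Fezf1 is a zinc finger repressor of the early forebrain. m6A, methylated adenosine, is found mostly near stop codons and in the 3′ untranslated region of mRNA and is linked to mRNA turnover.

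GLORI deaminates adenosine so that it is sequenced as G, while m6A is sequenced as A. The level of a site is the share of reads that still show A, and its coverage is the number of reads with A or G. The lists held between 215850 and 288516 sites per library, with a median coverage of 38 to 41 reads. No listed site had fewer than 15 reads, fewer than 5 unconverted reads or a level under 0.1, and the authors' deposited p-value was at most 0.004 at every one. A site missing from a list may therefore have had too low a level, too few reads or too high a p. Each site also carries a coverage and a conversion rate that were taken to be those of its gene, although the file headers do not define them. All gene coverages and conversion rates below rest on that reading, and gene coverage is given here relative to the median gene of the same library. A gene with no listed site has no coverage value. Mettl3 itself, the targeted gene, had a coverage of 1.01 and 0.801 times the median gene in the WT libraries and 1.16 and 1.04 times in the KO libraries (log2 change 0.29 ± 0.18 SE, limma adjusted p = 0.348), and the position of the lesion is not given in the labels, so coverage does not check them. Positions are those of the lists. The submitters' processing notes name mm10, but of 3360 listed sites that fall in promoter windows of GRCm38, the assembly behind mm10, 23.1% read A there. The deposited features of 5 of the 6 genes also start over 10000 bases from their GRCm38 start. Positions and features thus do not match GRCm38, and which build they are on is not settled. No base was read at a listed position, and the GRCm38.p6 promoter windows given below cannot be set beside list positions.

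Gene coverage of Six3, Lhx2, Hesx1 and Fezf1 was several times lower in the KO libraries than in the WT libraries, Rax was in neither KO list, and the Pax6 groups overlapped. In bulk RNA, fewer cells of a type and less RNA per cell cannot be told apart. Rax coverage was 3.64 and 3.04 times the median gene in the WT libraries, and with 0 listed sites in either KO library it had no KO value. Six3 coverage was 16.3 and 17.6 times the median gene in the WT and 1.80 and 2.45 times in the KO, a mean in the KO of 0.125 of that in the WT. Lhx2 coverage was 4.26 and 4.61 times in the WT and 0.636 and 0.629 times in the KO, a ratio of 0.143. In both KO libraries Lhx2 thus lay below the median gene, which it exceeded clearly in the WT.

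Hesx1 coverage was 5.25 and 5.42 times the median gene in the WT and 1.20 and 0.717 times in the KO, a ratio of 0.180. Its KO libraries lay on either side of the median gene. Fezf1 coverage was 6.58 and 6.12 times in the WT and 1.31 and 1.45 times in the KO, a ratio of 0.217. Pax6 coverage was 2.22 and 2.23 times in the WT and 2.61 and 2.23 times in the KO, a ratio of 1.09. The Pax6 groups overlapped, while for Six3, Lhx2, Hesx1 and Fezf1 the gap between the groups was wider than the spread within either. On the log2 scale the KO minus WT differences were -3.01 for Six3, -2.81 for Lhx2, -2.52 for Hesx1, -2.20 for Fezf1 and 0.12 for Pax6.

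**Figure D1:**
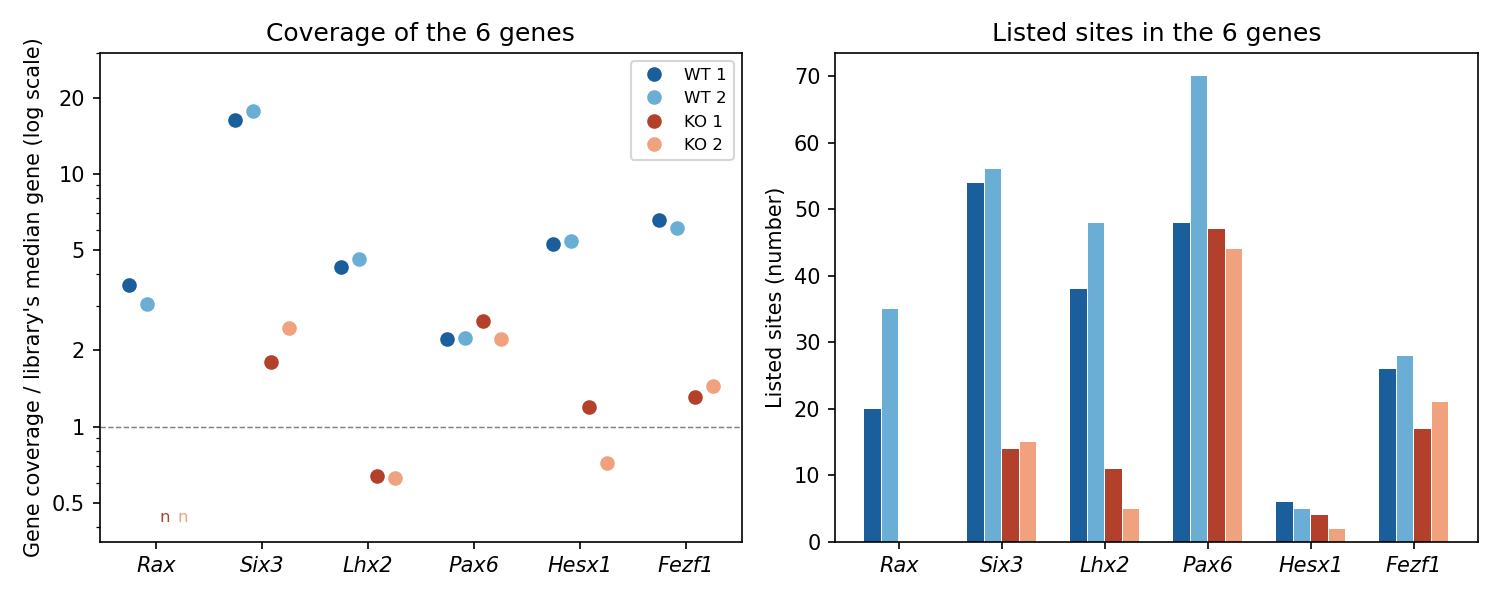
Left, coverage of each gene divided by that of the library's median gene (log axis, dashed line at 1), 1 point per library; n marks a KO library in which Rax has no value. Right, the number of listed sites per gene and library. Six3 sits above 16 times the median gene in both WT libraries and below 2.5 times in both KO libraries, while the 4 Pax6 points lie between 2.22 and 2.61.

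These values can be set beside all 8223 genes with a coverage value in every library. Both KO libraries lay below both WT libraries in 4 of the 5 genes with values, and in 29.4% of all genes. A KO mean under 0.25 of the WT mean, a bound chosen after the values were seen, was found in 8 genes (0.0973% of all), 4 of which are Six3, Lhx2, Hesx1 and Fezf1. The other 4 were Hopx (a ratio of 0.201), which encodes a small homeodomain protein, Trh (0.213), the precursor of thyrotropin-releasing hormone, Snn (0.213) and Fzd5 (0.244), a Wnt receptor. Nothing is read from these counts for the 6 genes, since this contrast was known when they were chosen. Across all genes, limma found 254 genes lower in the KO (3.09%) and 216 higher (2.63%) at a Benjamini-Hochberg adjusted p under 0.05. Without centring each library on its median gene, these counts were 299 lower and 101 higher, and the median gene then stood at -0.13 on the log2 scale.

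The number of listed sites differed between the groups by gene. The 6 genes together had 192 and 242 listed sites in the WT libraries and 93 and 87 in the KO libraries. Per 100000 sites of the library this was 84.5 and 83.9 in the WT and 40.4 and 40.3 in the KO. Some sites carried a coverage value that spanned a chromosome and was not the gene's own, 74 and 113 in the WT and 14 and 13 in the KO. Over the whole lists these were 21.7% and 24.3% of sites in the WT and 18.4% and 18.6% in the KO. Sites with the gene's own value numbered 118 and 129 in the WT and 79 and 74 in the KO. In Six3 the chromosome-wide values were at 24 and 31 WT sites and 1 and 0 KO sites. Six3 had 54 and 56 sites in the WT and 14 and 15 in the KO. Lhx2 had 38 and 48 in the WT and 11 and 5 in the KO. Both genes had far fewer sites in each KO library than in either WT library.

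Pax6, whose coverage overlapped between the groups, had 48 and 70 sites in the WT and 47 and 44 in the KO. Its first WT library and both KO libraries were close together, and its second WT library stood above them. Fezf1 had 26 and 28 sites in the WT and 17 and 21 in the KO, Hesx1 had 6 and 5 against 4 and 2, and Rax had 20 and 35 against 0 and 0. Well-covered sites of high level were nearly all in the WT. With 100 or more reads and a level no lower than 0.3 there were 11 and 15 sites in the WT and 2 and 0 in the KO, against 4364 and 6245 and then 1038 and 1298 over the whole lists. Both KO sites of this kind were in Fezf1. A minimum of 100 reads was harder to reach in the KO for Six3, Lhx2, Hesx1 and Fezf1. Their mean KO coverage was 0.125 to 0.217 of that in the WT, and Rax had no KO value. Pax6, whose coverage overlapped, had 1 and 1 such sites in the WT and 0 and 0 in the KO.

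Recurrence of sites between the WT libraries was examined next. Of 170 sites of the 6 genes with a coverage of at least 20 in the first WT library, 33 (19.4%, Wilson 95% interval 14.2 to 26.0) were listed in the second, and of 216 in the second, 34 (15.7%, 11.5 to 21.2) were listed in the first. Over all genes these shares were 13.6% and 10.9%. Among sites with 100 or more reads and a level no lower than 0.3, 10 of 11 and 10 of 15 recurred, against 72.6% and 63.8% over all genes. Most listed sites of these genes were therefore seen in 1 library only, and 25 of the 33 that recurred had 100 or more reads in the first. Pax6 stood low: its WT libraries shared 2 sites, 4.17% of the first list's and 2.86% of the second's, while the first WT library shared 5 and 6 sites with the KO libraries and the second 2 and 6. Hesx1 had no site in more than 1 list.

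At 20 or more reads in both, the WT libraries shared 33 sites: 6 in Rax, 9 in Six3, 9 in Lhx2, 2 in Pax6, 0 in Hesx1 and 7 in Fezf1. The WT libraries measured them alike. The difference in level between them had a median of 0.0475 and reached 0.245, and 16 of the 33 were higher in the first library. The Wilson 95% intervals of the libraries overlapped at 30 sites, and they did not at Rax 66068259 and Fezf1 23247820 and 23247895. These intervals, here and below, cover counting error only, since reads may be PCR copies. The median level of the 33 sites was 0.256, against 0.261 over all 22692 such sites. Levels of at least 0.3 were found at 12 sites, of at least 0.5 at 6 and of at least 0.8 at 3.

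**Figure D2:**
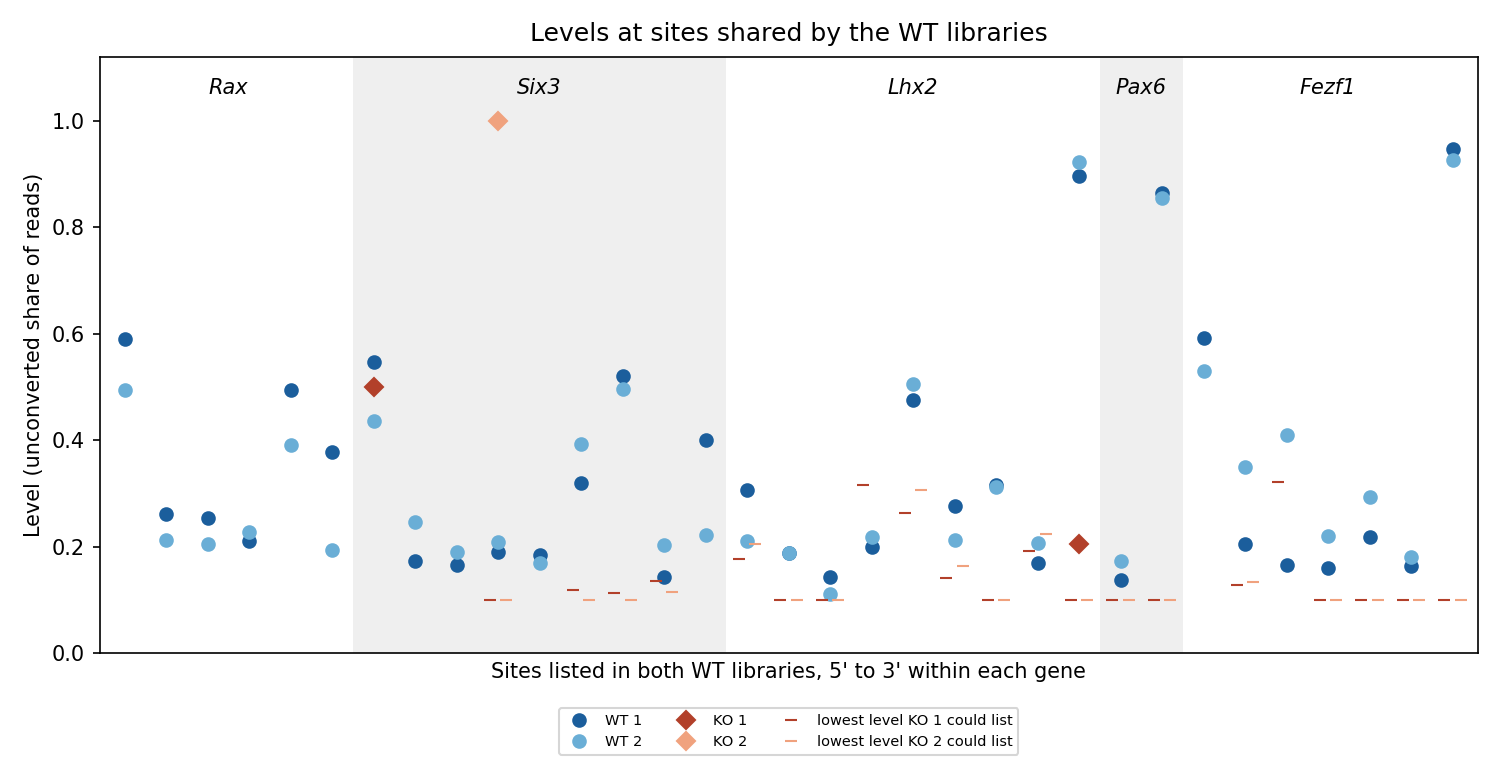
Level (share of unconverted reads) at the 33 sites listed in both WT libraries, ordered from 5′ to 3′ within each gene. Circles are WT libraries, diamonds the 3 levels found in a KO list, and short bars the lowest level that could have been listed at the KO coverage expected from gene coverage, drawn where that coverage is at least 15 reads. One site each of Lhx2, Pax6 and Fezf1 lies above 0.8 in both WT libraries.

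Of the 33 sites, 30 (90.9%, Wilson 95% interval 76.4 to 96.9) were in neither KO list, and the other 3 were in 1 KO list each. Over all genes, 83.0% of 22692 shared WT sites were absent from both KO lists. Among genes that had sites in both KO libraries, which leaves out Rax, the share was 24 of 27 (88.9%) here and 82.9% of 22400 over all genes. The expected KO coverage of a site was its WT coverage scaled by the gene's own coverage in each library, and the lowest level that could be listed was taken from the minima of reads and level, without the p. This is a rough guide: Six3 85921073 had an expected coverage of 5.24 reads in the first KO library and was listed there with 16. Of 18 sites whose WT level could have been listed at that coverage in both KO libraries, 16 were in neither list, against 82.7% of 16837 over all genes. Where the expected coverage was at least 50 and the level was at least 2 times the lowest that could be listed, 4 of 5 were in neither, against 85.7% of 4626. None of the sites of the 6 genes was in all 4 lists, so none entered the edgeR quasi-likelihood test of site levels, in which 40 of 1557 sites (2.57%) had an adjusted p under 0.05 with a lower KO level.

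Rax (ENSMUSG00000024518, chromosome 18, 66061348 to 66072858, minus strand) encodes the retina and anterior neural fold homeobox protein. Its highest shared site, 66072024, lay 834 bases from the deposited start of the gene and had a level of 0.590 at 293 reads and 0.495 at 378 reads in the WT libraries. A second site, 66071995, had 0.261 at 299 reads and 0.213 at 403 reads. The best covered shared site, 66068259, had a level of 0.494 (Wilson 0.447 to 0.541) at 433 reads and 0.391 (0.348 to 0.435) at 471 reads. It was one of 3 shared sites within 281 bases. The shared Rax sites thus lay in the 5′ part and the middle of the feature, and none was within 1000 bases of its 3′ end. Site 66068018 had a level of 0.988 at 403 reads in the second WT library and was absent from the first. No Rax site was in a KO list, and since no KO coverage is known, less m6A and fewer Rax reads cannot be told apart.

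Six3 (ENSMUSG00000038805, chromosome 17, 85921036 to 85936730, plus strand) encodes a homeodomain repressor of the sine oculis family. Its feature overlaps 5 smaller features on the same strand, which hold 9 of its 139 entries. The highest mean level among shared sites was at 85931716, 0.520 at 375 reads and 0.496 at 516 reads, in a group of 3 shared sites within 53 bases. Its neighbours were 85931684, with 0.319 at 360 reads and 0.393 at 512 reads, and 85931737, with 0.144 at 313 reads and 0.202 at 410 reads. All 3 were absent from both KO lists, where their expected coverage was between 36.7 and 51.9 reads. In the first KO library, other sites 3 to 24 bases away were listed with 31 and 41 reads, so reads did reach this stretch there. The second KO library's nearest listed sites lay 205 to 258 bases away with 32 reads.

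The Six3 site with the highest mean coverage among those shared by the WT libraries, 85929051, had 0.191 at 524 reads and 0.209 at 957 reads in the WT. It was absent from the first KO list and had a level of 1.00 (Wilson 0.875 to 1.00) in the second, at 27 reads. Site 85921073, 37 bases from the deposited start, had 0.547 at 64 reads and 0.436 at 55 reads in the WT and 0.50 at 16 reads in the first KO library. In all, 6 Six3 sites were in at least 1 list of each group, at KO coverages of 16 to 50 reads. All 6 had a higher mean level in the KO, by 0.00838 to 0.80. The smallest difference was at 85921073, where the KO level lay between the WT levels. Their Wilson intervals were separate at 2, 85929051 and 85931216 (0.109 at 742 WT reads, 0.400 at 40 KO reads). At 85931232 the levels were 0.117 at 824 WT reads and 0.180 at 50 KO reads, and at 85931264 they were 0.147 at 825 WT reads and 0.180 at 50 KO reads. With at least 5 unconverted reads needed, the lowest level that 16 reads can list is well above 0.1, while 50 reads can list 0.1. At 85931216, 85931232, 85931264 and 85931334 the WT levels were 0.109 to 0.147, close to the list minimum of 0.1. A KO level much below these could not have been listed, so nothing is read from the shared direction. How often such sites were higher in the KO over all genes was not counted. Both KO libraries shared 85931258, with 0.323 and 0.214, and 85931334, with 0.150 at 40 reads and 0.581 at 43 reads against 0.118 at 1146 reads in the second WT library.

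Lhx2 (ENSMUSG00000000247, chromosome 2, 38229293 to 38259745, plus strand) encodes a LIM homeodomain factor. Its site 38259446, 299 bases from the deposited 3′ end, had a level of 0.896 (Wilson 0.864 to 0.922) at 424 reads and 0.922 (0.898 to 0.941) at 604 reads in the WT. In the first KO library the level was 0.205 (0.108 to 0.355) at 39 reads, and in the second the site was absent, with a listed site 29 bases away at 38 reads. This was the only site of the 6 genes where both WT levels lay above 0.8 and a KO library gave a level. The best covered of the sites shared by the WT libraries, 38259104, had 0.316 at 1539 reads and 0.313 at 1546 reads in the WT and was absent from both KO lists, at expected coverages of 198.7 and 170.3 reads. The nearest site of the first KO list, 103 bases away, had 68 reads.

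A second group of 4 shared Lhx2 sites lay within 245 bases inside the feature, from 12043 bases after its deposited start, with WT levels between 0.112 and 0.307. GRCm38.p6 has 2 annotated starts of Lhx2, whose promoter windows end at 38339280 and 38351307. Sites inside the feature may therefore lie near the second start. Their distance from it was not measured, since sites and windows are not on the same build. None of these 4 was in a KO list. A site among them, 38241488, was in both KO lists instead, with 0.448 at 29 reads and 0.780 at 41 reads, and in the second WT list with 0.131 at 1003 reads. Its KO intervals lay above its WT interval. Site 38259026, 719 bases from the 3′ end, had 0.822 at 416 reads in the second WT library alone.

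Pax6 (ENSMUSG00000027168, chromosome 2, 105499245 to 105527709, plus strand) encodes a paired domain and homeodomain factor and was covered at overlapping depths in both groups. Site 105527131, 578 bases from the deposited 3′ end, had a level of 0.864 (Wilson 0.817 to 0.901) at 258 reads and 0.856 (0.810 to 0.893) at 278 reads in the WT. It was in neither KO list, where 302.3 and 224.1 reads were expected. The nearest listed KO sites, 49 and 128 bases away, had 94 and 61 reads, fewer than expected but enough, by the minimum of unconverted reads, to list a level of 0.1. The best covered shared site, 105527072, had 0.138 at 334 reads and 0.173 at 335 reads and was also in neither KO list. These were the only sites shared by the WT libraries.

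Pax6 also held 18 of the 27 sites of the 6 genes that were in at least 1 list of each group. Of these, 8 were higher and 10 lower in the KO, and at 17 the Wilson intervals of the groups overlapped. The exception was 105514344, with 0.652 at 46 reads in the first WT library and 0.321 at 78 reads in the first KO library. The same counts were not made over all genes. A stretch about 4.6 kb from the 3′ end shows the low levels typical of this group. There, 105523159 had 0.184 at 158 reads in the first WT library and 0.110 at 237 reads and 0.100 at 280 reads in the KO libraries, and 105523123 had 0.254 at 398 reads in the second WT library and 0.266 at 316 reads in the first KO library. The remaining cross-group Pax6 sites had levels between 0.103 and 0.50. The KO libraries alone shared 105510649, with 0.136 and 0.184, and 105527527, with 0.130 at 207 reads and 0.259 at 108 reads.

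Hesx1 (ENSMUSG00000040726, chromosome 14, 26716373 to 26724286, plus strand) had 17 listed sites over the 4 libraries, each in a single list. In the WT libraries all 11 had levels between 0.107 and 0.191, at coverages of 47 to 618 reads. In the first KO library the 4 sites had levels of 0.107 to 0.250, and in the second the 2 sites had 0.529 at 17 reads and 0.600 at 15 reads. Hesx1 was thus well covered in the WT without a site that recurred, and none of its WT levels reached 0.2.

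Fezf1 (ENSMUSG00000029697, chromosome 6, 23245043 to 23248361, minus strand) carried the highest shared level of the 6 genes. Site 23245464, 421 bases from the deposited 3′ end, had 0.948 (Wilson 0.924 to 0.964) at 478 reads and 0.926 (0.903 to 0.944) at 637 reads in the WT. It was also the best covered shared Fezf1 site. It was in neither KO list, where 101.2 and 96.9 reads were expected, and the nearest listed KO sites, 96 and 160 bases away, had 78 and 156 reads. The 3 further shared sites within 140 bases of it, 23245504, 23245517 and 23245604, had WT levels between 0.160 and 0.294, and these too were in neither KO list. Near the other end, 23248260 had 0.593 at 54 reads and 0.530 at 83 reads. One Fezf1 site was in a list of each group, 23245833, with 0.136 at 236 reads in the second WT library and 0.128 at 47 reads in the second KO library. Both KO libraries shared 23247313, with 0.258 at 120 reads and 0.194 at 31 reads, which was in neither WT list. Site 23247415 had 0.675 at 209 reads in the second WT library alone.

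Six3 and Fezf1 were both lower in coverage in the KO, and their start regions can be read in the RefSeq promoter table for GRCm38.p6, which held windows for Six3, Lhx2, Hesx1 and Fezf1 that were searched for 4 short motifs on both strands. The 250 bases before the annotated start are shown for Six3 and Fezf1 because each holds 3 matches to the CCAAT box, more than the other windows. Capitals mark CCAAT or its reverse complement ATTGG, and the windows are chr17:85620584-85620833 on the plus strand and chr6:23248265-23248514 on the minus strand, each read 5′ to 3′ along the gene.
Six3: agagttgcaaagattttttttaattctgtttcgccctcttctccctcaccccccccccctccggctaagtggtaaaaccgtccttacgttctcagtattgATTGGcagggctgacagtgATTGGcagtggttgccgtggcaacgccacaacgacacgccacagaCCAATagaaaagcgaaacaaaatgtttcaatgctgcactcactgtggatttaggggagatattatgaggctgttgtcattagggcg
Fezf1: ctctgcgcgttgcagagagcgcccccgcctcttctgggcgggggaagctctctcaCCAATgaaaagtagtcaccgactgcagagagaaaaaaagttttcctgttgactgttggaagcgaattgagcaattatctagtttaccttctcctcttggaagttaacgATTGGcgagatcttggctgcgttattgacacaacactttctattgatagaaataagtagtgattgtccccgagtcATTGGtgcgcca
Of 32851 windows of this length in the table, 33.8% hold at least 1 CCAAT and 2.79% hold 3 or more. Neither Lhx2 window nor the Hesx1 window holds one. The homeodomain core TAATTA (in 4.84% of all windows) and the TATA box TATAAA (12.4%) were found in none of the windows searched, and the SOX core ACAAT (27.7%) was found once, in Fezf1. ACAAT and CCAAT differ in their first letter, so a match to one is not a match to the other. The windows also differ in base composition, with a GC content of 48.8% in Six3, 47.6% in Fezf1, 34.0% in Hesx1 and 72.8% and 68.4% in the windows of Lhx2. A match is a description of these letters and not a binding site.

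Position along the gene was compared for the sites shared by the WT libraries. Of the 33, 10 (30.3%) lay within 1000 bases of the deposited 3′ end, against 33.7% of the 22692 over all genes. Within 1000 bases of the deposited start lay 7 (21.2%), against 8.81%. Further annotated starts inside a feature, as in Lhx2, were not counted. All 3 sites with a mean level of at least 0.8, in Lhx2, Pax6 and Fezf1, lay 299 to 578 bases from the 3′ end, while over all genes 32.8% of 1731 such sites were within 1000 bases. Six3 and Rax had no shared site there. The highest shared level of Six3 lay 5014 bases from the 3′ end of a feature of 15695 bases. That of Rax lay 834 bases from the deposited start. The deposited intron mark was set for all 209 Pax6 entries and for none of the 102 Lhx2 entries, so it was not used, and exons and untranslated regions were not assigned.

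**Figure D3:**
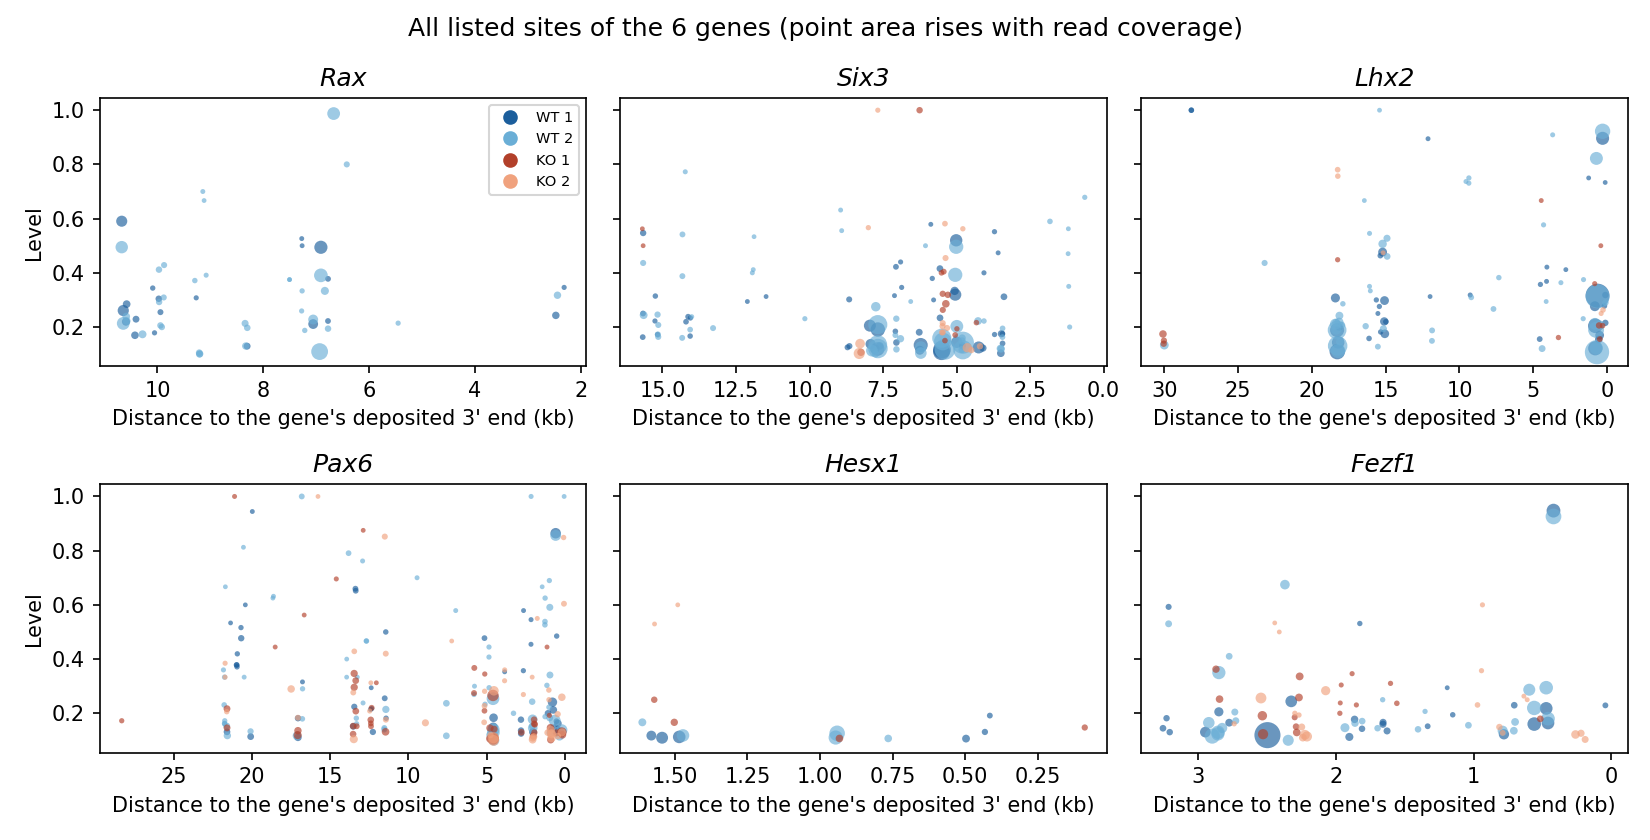
All listed sites of the 6 genes by distance to the deposited 3′ end (kb, 3′ end at the right) and level, 1 colour per library; point area rises with read coverage. The large WT points of Lhx2, Pax6 and Fezf1 near the 3′ end, at levels of 0.856 to 0.948, are absent from the KO lists, except for the Lhx2 site, which has a KO level of 0.205.

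The deposited conversion rate was read as the share of A in a gene's reads that was sequenced as G, a meaning the headers do not state. Rax and Lhx2 were among the least converted genes of the WT libraries. Rax had 91.7% and 92.1%, at percentiles 2.60 and 2.55 of all genes, and Lhx2 had 92.4% and 92.9%, at percentiles 3.94 and 4.76. On this reading, an unconverted share of 8.33% and 7.94% over the whole of Rax, and of 7.65% and 7.07% over Lhx2, lies close below the lowest level that is listed, so sites of these genes with levels near 0.1 stand little above the gene's own share. In the KO libraries Lhx2 had 95.5% and 95.9%, its mean 3.04 percentage points higher, which is at percentile 95.3 of the changes of 8223 genes, whose median was 0.632 points.

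Fezf1 was converted to 95.4% and 95.5% in the WT and 97.0% and 97.0% in the KO, 1.54 points higher. Pax6 had 95.9% and 95.9% in the WT and 96.7% and 96.6% in the KO, 0.784 points higher. Six3 had 96.7% and 96.8% in the WT and 97.1% and 97.4% in the KO, 0.474 points higher, and its groups did not overlap either. Hesx1 had 96.1% and 95.8% in the WT and 95.9% and 94.7% in the KO, with overlapping groups and a difference of -0.64 points. The median gene was at 96.1% and 96.2% in the WT and 97.2% and 96.6% in the KO, so the gains of Six3 and Pax6 were close to that of the median gene.

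**Figure D4:**
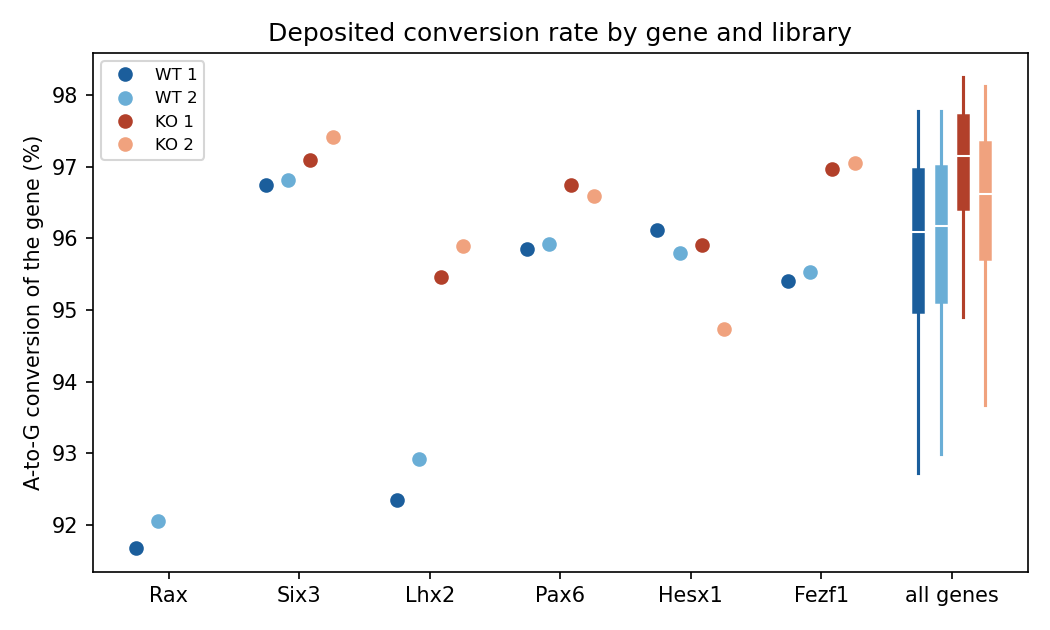
A-to-G conversion rate (%) of each gene, 1 point per library, beside the spread over all genes at the right (thick bar, middle 50%; thin line, 5th to 95th percentile; white mark, median). Rax and Lhx2 lie at 91.7% to 92.9% in the WT libraries, below the 5th percentile of all genes, and the KO points of Lhx2 lie at 95.5% and 95.9%.

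Other genes of head and eye patterning show where the 6 genes stand. The counts below come from the limma fit on log2 gene coverage over all 8223 genes with Benjamini-Hochberg adjustment, and they rest on few libraries: without the first KO library 15 of the 18 named genes below lost the call, and without the second 16 did, while none changed direction. Of 16 further eye field and optic vesicle genes, 5 had a value in every library, 2 rose and 1 fell. Mab21l2, needed for growth of the optic cup, had 0.413 and 0.331 times the median gene in the WT and 2.97 and 2.65 times in the KO, a log2 change of 2.92 ± 0.18 (SE, adjusted p = 1.0e-05). Nr2f1, a nuclear receptor of optic vesicle and cortex, rose by 1.13 ± 0.20, and Sfrp1, a secreted Wnt antagonist, fell by 0.99 ± 0.18 (adjusted p = 0.010 for both). Pax2 and Sfrp2 did not pass the test, with changes of 0.016 and 0.094. The median of the 5 was 0.094, against -0.02 over all genes.

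Of 15 anterior neural and forebrain genes, 5 were tested, and their median was -0.39. Emx2 (0.88) and Sp8 (1.06), transcription factors of the telencephalon, rose, and Lhx5, a LIM homeodomain factor of the diencephalon, fell by 1.07. Fgf8, the signal of the anterior neural ridge, had a coverage value in both WT libraries and in no KO library, as Rax did. Here and below, a missing value does not show that a gene had no listed site. Genes whose sites carried a chromosome-wide value or more than 1 value were left out too. Each library had values for 9232 to 9729 genes, and 8223 genes had one in all 4, so missing values were common. The share of all genes with a value in 1 group only was not counted. Of 15 general neural progenitor genes, 12 were tested, with a median of -0.16: Hes5 (0.89) rose, and Sox2 (-0.79) and Hes1 (-1.30) fell. Sox1, Sox3, Sox11 and Nes did not pass, with changes between -0.16 and 0.05. The other genes of this list that did not pass lay between -0.35 (Cdh2) and 0.21 (Notch1). The summed coverage of the 12 was 41.0 and 43.1 times the median gene in the WT and 34.2 and 33.6 times in the KO.

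Markers of other cell types were counted in the same fit. Of 20 midbrain and hindbrain genes, 4 were tested: Wnt1, a signal of the midbrain-hindbrain boundary, rose by 2.16 ± 0.21 (adjusted p = 0.00028) and Fgf15 fell by 0.72, while Irx2 and Irx5 had a value in both KO libraries and in no WT library. Their summed coverage was 2.49 to 2.74 times the median gene in the WT and 3.26 to 4.03 times in the KO. Of 13 neural plate border and neural crest genes, 4 were tested and Msx2 rose by 1.22, with sums of 2.92 to 3.45 and 4.00 to 4.32. Pax3 and Tfap2b had a value in the KO libraries only. Of 12 pluripotent and epiblast genes, 7 were tested and Utf1 (-1.13), Lin28a (-0.71), Fgf5 (-0.70) and Pou5f1 (-0.68) fell, with sums of 30.0 and 35.2 in the WT and 21.1 and 20.0 in the KO; Zfp42 and Tdgf1 had a value in the WT libraries only.

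Of 8 surface ectoderm genes, 3 were tested and Krt18 fell by 0.74, with sums of 3.31 to 3.35 in the WT and 3.62 to 3.94 in the KO. That sum rose through Cdh1 (0.57) and Epcam (0.23), which did not pass the threshold. Cdh1 stood at 1.34 and 1.38 times the median gene in the WT and 2.15 and 1.90 times in the KO. Of 9 mesoderm and endoderm genes only Cxcr4 was tested, and it rose by 0.89, while Gata4 had a value in the WT libraries only. None of the 5 tested reference genes of 8 passed the threshold. Their summed coverage was 43.7 and 42.1 in the WT and 40.2 and 33.5 in the KO. The summed coverages of the midbrain and hindbrain, neural plate border and surface ectoderm lists were thus higher in the KO. The eye field and optic vesicle sum was 12.68 and 13.96 in the WT and 13.76 and 13.33 in the KO, with overlapping groups. The anterior neural and forebrain sum was 14.97 and 16.60 in the WT and lower in the KO, at 14.10 and 12.25. Six3, Lhx2, Hesx1 and Fezf1, which were not part of these sums, were lower in the KO. The midbrain and hindbrain sum rose through Wnt1, at 0.409 and 0.302 times the median gene in the WT and 1.33 and 1.87 in the KO. The other tested genes of that list changed by 0.40 (En1), -0.30 (Meis2) and -0.72 (Fgf15). In the neural plate border list only Msx2 passed the threshold. The median log2 changes of these 2 lists were 0.05 and 0.22. The part of any list in the lower coverage of the 4 genes was not tested. Among the tested genes of these lists, Mab21l2 alone differed in size by more than Lhx2 (-2.81), and none by more than Six3 (-3.01).

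**Figure D5:**
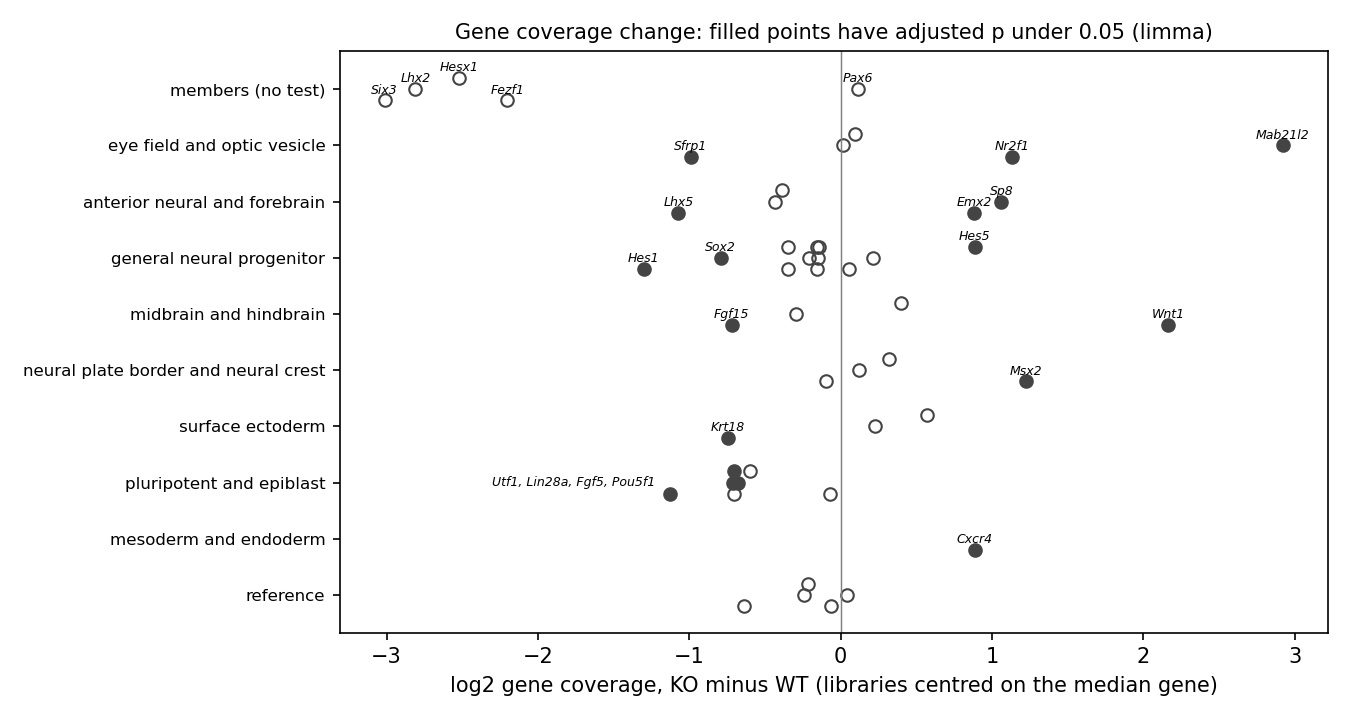
KO minus WT difference in log2 gene coverage, 1 point per gene, for the 5 of 6 genes with values in all 4 libraries (top row, no test) and for the tested genes of the 9 lists; filled points have a limma adjusted p under 0.05 and are named. Six3, Lhx2, Hesx1 and Fezf1 lie between -3.01 and -2.20 and no listed gene lies below -1.30, while Mab21l2 and Wnt1 lie at 2.92 and 2.16.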

How the data were processed

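GLORI libraries of poly(A) RNA were analysed from 4 samples at day 4, 2 WT and 2 Mettl3 KO, grouped by title. Per the file headers, the authors deposited for each called site 2 counts (all reads that show A or G, and those that show A), the level as a fraction, and p-values whose test is not given in the sources used here. Per the file headers, a coverage signal and a conversion fraction are deposited per gene beside each site. Aligner, caller and annotation are not given in the sources used here. Total reads are not given, so depth is described by coverage per site.

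Repeated positions (28 to 53 per list) were collapsed. Between 18.4% and 24.3% of sites carried a coverage value that spanned both strands of a chromosome, and these were not used as gene values. Gene coverage was taken as log2, centred on each library's median gene and fitted with limma 3.58.1, and site counts were tested with edgeR 4.0.16 (coverage at least 20), both in R 4.3.3 and tested on simulated data. The limma threshold was a Benjamini-Hochberg adjusted p of 0.05. Intervals are Wilson 95%. Alternatives covered centring, pseudocount, coverage and level minima, other tests and each library left out. The 6 genes and the 9 gene lists were chosen with earlier results of these data known, and 2 genes of these lists are not reported here. Named were, per gene, the shared WT site with the highest level and the one with the highest coverage, sites listed in both KO lists or in both groups (those of Pax6 in part by their range), and per list up to 4 genes past the threshold by adjusted p. Other sites, and genes with a value in 1 group only, were named after their values were seen.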

Additional observations from a re-analysis of the deposited data

How the results depend on the processing

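The coverage differences of Six3, Lhx2, Hesx1 and Fezf1 kept their direction in all 11 alternatives run, and that of Lhx2 moved beyond the spread between libraries in 1, without centring, to -2.92. Pax6 stayed between 0.0030 and 0.23. The number of genes called rose from 470 to 751 among genes covered at or above the median gene, and was 18 to 399 with a library left out (41 without the first KO library, 18 without the second and 226 without the second WT library), where a lone library was assumed to vary like the other group. Site level calls went from 40 to 168 with Fisher's exact test on sums, and ranged from 26 to 42 with a library left out; without the first KO library there were 26. Calls in the gene lists went from 18 to between 2 and 16: 3 without the first KO library, 2 without the second and 10 without the second WT library. Of the 18 genes, 2, Mab21l2 and Wnt1, stayed past the threshold in every alternative they entered.

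The share of shared WT sites in neither KO list stayed between 81.8% and 95.8% over the minima, the gene name deposited with the site and each of the 6 genes left out. By the deposited name only 11 sites were shared, of which 10 were in neither, against 30 of 33. Without the first KO library 32 of 33 (97.0%) were absent, and without the second 31 of 33 (93.9%). Leaving out a KO library can only raise this share. With a WT library left out, all sites of the other WT list with at least 20 reads were counted, not only shared ones. Of these, 156 of 170 (91.8%) in the first and 201 of 216 (93.1%) in the second were in neither KO list. The KO to WT ratio of listed sites, 0.415, was 0.344 for levels of at least 0.3 and 0.479 per 100000 listed sites, and 0.372 to 0.469 with a library left out. These ratios include sites with a chromosome-wide coverage value, which were more frequent in the WT lists of the 6 genes. Recurrence from the first WT library rose to 26.2% and 36.8% at coverage minima of 50 and 100 and to 27.5% at levels of at least 0.3. From the second it rose to 27.3% at a coverage minimum of 100 and to 22.9% and 21.2% at levels of at least 0.2 and 0.3.

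With the replicate number as a block, 597 genes, 53 sites and 19 list genes were called. Replicate differences of the groups correlated at -0.027 over 8223 genes, so the numbers were not taken as pairs. Depth limits what could be listed: at 15 reads only levels of at least 0.333 could be.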
